A study of Danio rerio with 30 samples.

Results

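The genes described are those of the proteasome, the protease complex that degrades proteins marked with ubiquitin. Members were taken by symbol: every gene of the count table whose zebrafish symbol, ignoring case, began with psma, psmb, psmc, psmd, psme, psmf or psmg and a digit. This gave 57 of the 20631 genes counted, and all 57 passed the filter on low counts. They were 10 genes of the alpha ring, 7 of the constitutive beta ring, 5 inducible beta genes (PSMB8, PSMB9, PSMB10, psmb12 and psmb13a), 7 ATPase genes and 5 other genes of the regulatory particle's base, 9 of its lid, 5 activators, 1 inhibitor and 6 assembly chaperones. The remaining 2, PSMC3IP and PSME3IP1, encode proteins that are no proteasome subunits and were caught by their names. The 50 genes outside the inducible set and this pair are called constitutive here. The matching symbols PSMB11 and psmb11b were absent from the count table. PSMA6, PSMD2, PSMD11 and PSME4 each name a pair of genes, which are told apart below by identifier. Symbols are printed as the reference table writes them, often in the capitals of the human gene.

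The data were RNA-seq counts from 30 libraries of zebrafish blood stem and progenitor cells, sorted at 6 days post fertilization for low GFP from larvae with a GFP transgene under the itga2b promoter. Larvae were wild type (WT, 14 libraries) or rps14+/- (Het, 16 libraries), and rps14 encodes a small ribosomal subunit protein. Stress was none (14 libraries) or 1 µg/mL phenylhydrazine (Phz, 16 libraries) from 24 to 48 hours post fertilization, which destroys red blood cells. All larvae then spent 4 days in 20 µM imiquimod (Imi, 15 libraries), a ligand of the receptor TLR7, or in its solvent DMSO (15 libraries). The 8 groups are named by genotype, stress and treatment. They held 3 libraries (WT None DMSO), 4 (WT None Imi), 3 (WT Phz DMSO), 4 (WT Phz Imi), 4 (Het None DMSO), 3 (Het None Imi), 5 (Het Phz DMSO) and 4 (Het Phz Imi). Each library came from pooled larvae. The labels do not say whether replicates are separate pools, so the p-values measure the spread between these libraries, which may be partly technical.

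The proteasome's core particle is a barrel of stacked rings. The outer alpha rings gate the entry, and the inner beta rings carry the proteolytic sites, which in constitutive particles belong to PSMB5, PSMB6 and PSMB7. The regulatory particle sits on the barrel's end: its lid removes ubiquitin from the bound protein, and the ATPases of its base unfold the protein and thread it inside. In cells exposed to interferon, PSMB8, PSMB9 and PSMB10 replace PSMB5, PSMB6 and PSMB7 and form the immunoproteasome, which is known for making peptides for MHC class I. Zebrafish also carry psmb12 and psmb13a, further beta subunit genes of this inducible kind.

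Library totals ran from 5703056 to 15238153 counts (median 6894464). The level of rps14 was 543 ± 122 CPM (counts scaled to a common library size, with TMM factors; SD, n = 14) in WT and 237 ± 64.7 CPM (n = 16) in Het libraries. All 10 matched stem and progenitor markers had counts in all 30 libraries. The highest by median were MYB (433 to 1107 CPM), SPI1 (329 to 732 CPM), LMO2 (147 to 690 CPM) and TAL1 (84.8 to 400 CPM). RUNX1 ranged from 9.25 to 36.7 CPM and GATA2 from 0.835 to 71.9 CPM. The gene itga2b itself ranged from 0.271 to 35.8 CPM. Neutrophil markers were abundant, led by lyz at 3733 to 28616 CPM. In such bulk libraries, fewer cells of a type and less RNA per cell cannot be told apart.

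The constitutive proteasome genes together made up 3748 to 6235 CPM of a library. Their summed level in WT None DMSO libraries was 4158, 5282 and 4614 CPM, and in WT None Imi libraries 3748, 3795, 4889 and 3825 CPM. In WT Phz DMSO libraries it was 4455, 4759 and 4311 CPM, and in WT Phz Imi libraries 4819, 5099, 4631 and 5245 CPM. In both unstressed and stressed WT larvae the ranges with and without imiquimod overlapped, and the unstressed imiquimod group held the 3 lowest WT values. Het None DMSO libraries held 5504, 6235, 5260 and 4524 CPM, and Het None Imi libraries 3894, 4421 and 4872 CPM. Het Phz DMSO libraries held 5109, 4220, 5867, 5059 and 5274 CPM, and Het Phz Imi libraries 5172, 5808, 6048 and 5304 CPM. Among the 12 comparisons of groups that differ in 1 factor, the ranges were separate only between Het Phz Imi and Het None Imi. Over all conditions the sum was 4545 ± 521 CPM (SD, n = 14) in WT and 5161 ± 661 CPM (n = 16) in Het libraries, with overlapping ranges.

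**Figure D1:**
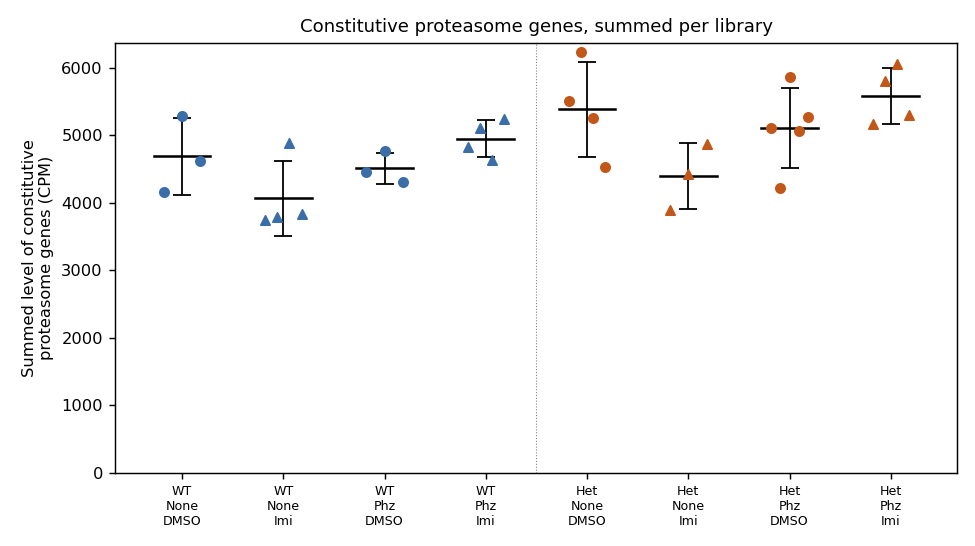
Summed level of the 50 constitutive proteasome genes (CPM) in each library of the 8 groups, WT in blue and Het in orange, circles for DMSO and triangles for imiquimod, with the mean and SD. The 2 unstressed imiquimod groups have the lowest means, and the 4 Het Phz Imi libraries lie between 5172 and 6048 CPM, above all 3 Het None Imi libraries.

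No proteasome gene passed edgeR's quasi-likelihood test at an adjusted p under 0.05 in any of the 18 contrasts. Over all genes the share called in these contrasts ran from 0 to 0.437%. DESeq2 called 1 member for genotype, where it called 1.15% of the 20592 genes it fitted, and 2 for the Phz by imiquimod interaction, where it called 0.495%. DESeq2 thus called more genes in all than edgeR. For genotype, 1 of 57 members (1.75%) is near its share. For the interaction, 2 of 57 members lie above its share of 0.495%, a difference that was not tested. Limma voom called 0 members, against 0.517% of all genes for genotype and 0.0351% for the interaction. At an unadjusted p under 0.05 edgeR gave between 0 and 20 members per contrast, against 3.51 to 12.4% of all genes. The largest count, 20 of 57, came from the Phz by imiquimod interaction, which asks whether the imiquimod difference was the same without and after Phz.

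In that interaction edgeR called 0 members, against 0.0351% of all genes. All 20 members at an unadjusted p under 0.05 were positive, against 5.41% of all genes in that direction, and 0 members were negative at that level, against 3.44%. In every contrast the members were measured in the same libraries and could move together, so their counts are not counts of separate observations. Replicate 3 of WT None Imi, for example, was its group's highest in the alpha (1486 CPM), constitutive beta (688 CPM), ATPase (1014 CPM) and lid (855 CPM) sums. The shares over all genes were not matched for level. Of the 57 members 47 had a positive value, with a median of 0.42 on the log2 scale, beside a median of 0.04 over all 19930 genes tested. The parts of the complex differed in how many members this involved. The alpha ring had 10 of 10 positive (median 0.48) and 7 at an unadjusted p under 0.05, and the constitutive beta ring had 7 of 7 positive (median 0.58) with 5 at that level. The ATPases were all positive too, at a lower median of 0.23, and 1 of 7 was at that level. The lid had 6 of 9 positive (median 0.47) and 5 at that level. The 5 activators, among which 2 were positive, had a median of -0.16 and 0 at that level.

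The members' median imiquimod difference was negative without Phz and slightly positive after it, where in WT it was near that of all genes. Without Phz, the median log2 difference of the members between imiquimod and DMSO was -0.21 in WT and -0.36 in Het larvae, where all genes had medians of 0.08 and 0.01. After Phz it was 0.15 in WT and 0.10 in Het larvae, beside 0.10 and 0.01 over all genes. Leaving out single libraries moved the 2 unstressed medians between -0.33 and -0.07 (WT) and between -0.45 and -0.27 (Het). It moved the stressed medians between 0.08 and 0.19 (WT) and between 0.05 and 0.17 (Het). Averaged over genotypes, 32 of 57 members (56.1%) were negative without Phz and positive after it, a pattern of 26.1% of all genes. In both genotypes alike, 34 members (59.6%) were negative without Phz, against 23.2% of all genes, and 32 (56.1%) were positive after Phz, against 31.4%. The within-stress comparisons rest on separate libraries.

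**Figure D2:**
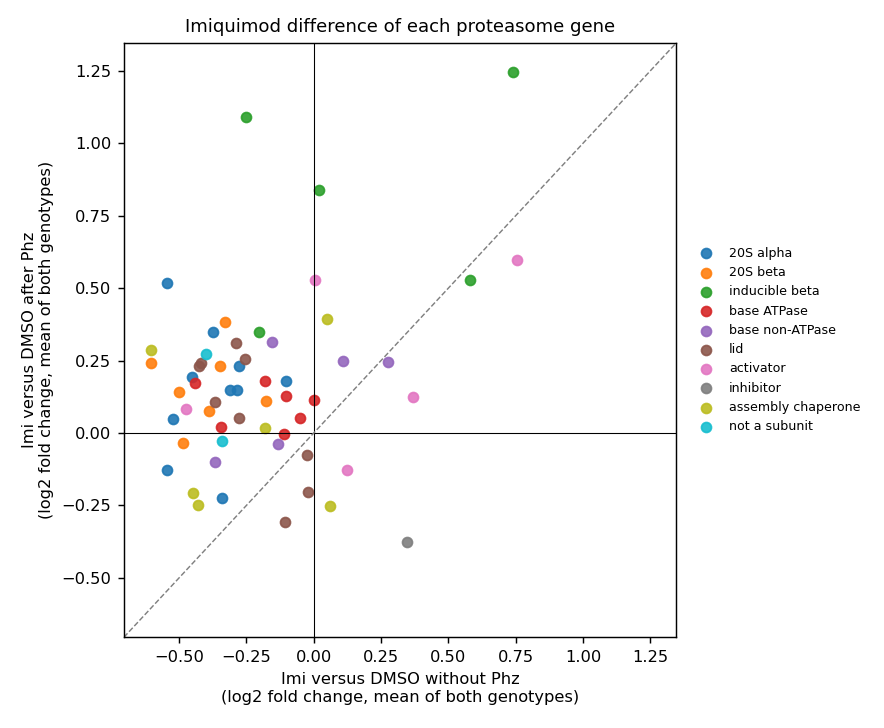
Log2 fold change of imiquimod against DMSO for each of the 57 proteasome genes, averaged over both genotypes, without Phz (horizontal axis) and after Phz (vertical axis), coloured by class. The dashed line marks equal values. 32 genes lie in the upper left of the plot, negative without and positive after Phz. Among those outside the inducible set, PSMB6 and PSMG2 lie farthest left, at -0.61 and -0.60.

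The members with the smallest interaction p were PSMG2 and PSMB6, chosen after their values were seen. PSMG2 encodes a chaperone that pairs with PSMG1 to build the alpha ring. Its level in unstressed WT libraries was 42.4, 71.5 and 68.8 CPM with DMSO and 35.2, 44.7, 43.7 and 39.0 CPM with imiquimod. After Phz it was 39.9, 53.3 and 50.6 CPM with DMSO and 58.9, 70.7, 68.1 and 48.9 CPM with imiquimod. In WT larvae, then, the imiquimod libraries were mostly the lower ones without Phz and mostly the higher ones after it, with overlap in both cases. Unstressed Het libraries held 83.3, 55.1, 59.9 and 61.4 CPM with DMSO and 49.7, 39.1 and 37.7 CPM with imiquimod. After Phz they held 43.1, 43.3, 47.4, 61.3 and 38.7 CPM with DMSO and 57.7, 52.1, 56.9 and 49.97 CPM with imiquimod. The unstressed Het groups did not overlap, and the stressed ones did. The interaction was 0.89 ± 0.23 (log2, SE; edgeR adjusted p = 0.24). DESeq2 gave an adjusted p of 0.0126.

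PSMB6 encodes the beta subunit with the caspase-like site. Unstressed WT libraries held 69.1, 74.4 and 48.9 CPM with DMSO and 47.8, 38.8, 60.8 and 43.7 CPM with imiquimod. After Phz, WT libraries held 38.0, 59.0 and 53.2 CPM with DMSO and 47.9, 94.0, 72.9 and 65.6 CPM with imiquimod. Both pairs of WT groups overlapped. Unstressed Het libraries held 71.9, 80.7, 77.2 and 77.6 CPM with DMSO and 41.2, 39.9 and 52.8 CPM with imiquimod, the 1 pair of the 4 without overlap. After Phz, Het libraries held 84.6, 65.6, 79.3, 68.3 and 58.0 CPM with DMSO and 63.7, 78.0, 76.0 and 67.2 CPM with imiquimod. The interaction was 0.85 ± 0.23 (edgeR adjusted p = 0.24; DESeq2 adjusted p = 0.032). In unstressed Het larvae alone, the imiquimod difference was -0.79 ± 0.24 (edgeR adjusted p = 1).

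Other core genes, also chosen after their values were seen, had smaller positive interaction values. They included PSMB5, the subunit with the chymotrypsin-like site (0.71 ± 0.26), and PSMB7, that with the trypsin-like site (0.47 ± 0.20). The alpha ring genes PSMA4 (0.72 ± 0.23) and PSMA5 (0.57 ± 0.22) were alike in size. In the regulatory particle, the ATPase gene PSMC3 was at 0.62 ± 0.20, the lid gene PSMD13 at 0.66 ± 0.22 and PSMD14, whose product removes ubiquitin from the substrate, at 0.47 ± 0.22. The edgeR adjusted p of these 7 genes lay between 0.35 and 0.55. The gene with the largest interaction among those at an unadjusted p under 0.05 was psma6l, at 1.06 ± 0.39.

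Mean library totals moved with the same groups. Mean totals were 5972707 and 5950584 counts in the unstressed imiquimod groups (WT and Het), and 7650238 and 9621958 counts in the stressed imiquimod groups, against 6787317 to 7458514 in the 4 DMSO groups. With the log2 total added to the model, an alternative chosen after the data were seen, 43 members were positive (median 0.30) and 13 were at an unadjusted p under 0.05. With the 6 libraries numbered S1 to S6 left out, which hold no Phz DMSO library, 46 members were positive (median 0.39) and 18 were at that level. The remaining library numbers ran in blocks by stress and treatment. These were S7 to S12 (None Imi), S13 to S18 (None DMSO), S19 to S24 (Phz Imi) and S26 to S33 (Phz DMSO). Without S1 to S6, library order and this interaction therefore cannot be told apart.

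**Figure D3:**
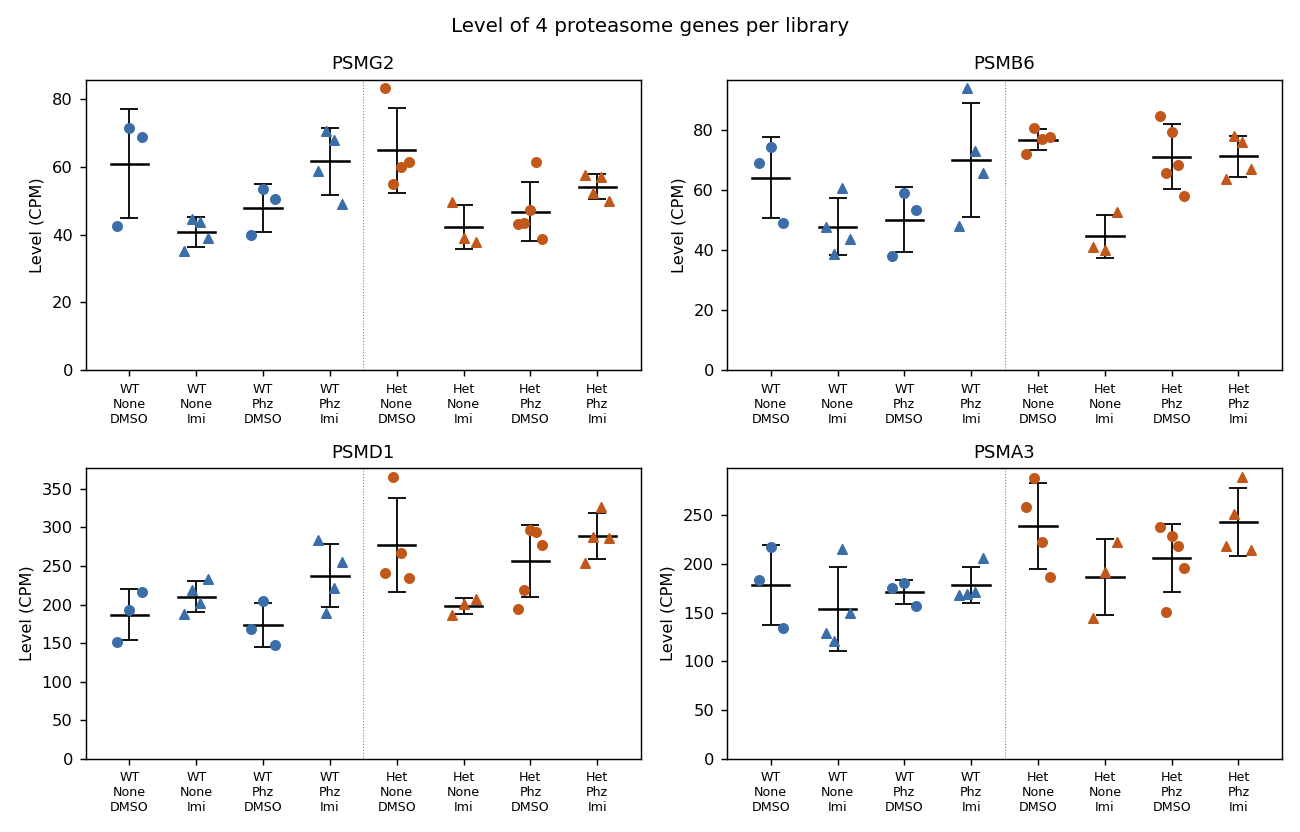
Level (CPM) of PSMG2, PSMB6, PSMD1 and PSMA3 in each library, with the mean and SD of each group; WT in blue, Het in orange, circles for DMSO and triangles for imiquimod. For PSMG2 and PSMB6 the 3 Het None Imi libraries lie below all 4 Het None DMSO libraries; for PSMD1 the 3 Het None Imi libraries lie between 187 and 207 CPM.

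The comparison of Het with WT, averaged over the 4 conditions, asked whether loss of 1 rps14 copy went with another proteasome level. edgeR called 0 members, against 0.437% of all genes. At an unadjusted p under 0.05, 12 members were higher in Het libraries, against 5.07% of all genes, and 0 were lower, against 3.91%. Positive values were found for 41 of 57 members, with a median of 0.17 (0.02 over all genes). In the base, all 7 ATPase genes were positive (median 0.28), 5 of them at an unadjusted p under 0.05, and 4 of the 5 other base genes were positive. All 7 constitutive beta genes (median 0.17) and 8 of 9 lid genes (median 0.16) were positive, with 1 each at that level. The alpha ring was split, with 4 of 10 positive and a median of -0.02. Positive in each of the 4 separate conditions were 22 members (38.6%), against 7.96% of all genes, and 2 members (3.51%) were negative in each, against 8.04%. Those 2 were psma2a and the PSMA6 copy ENSDARG00000013966.

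PSMD1, a large scaffold subunit of the base, had the smallest p. It measured 151, 193 and 216 CPM in WT None DMSO, 188, 218, 202 and 233 CPM in WT None Imi, 168, 205 and 148 CPM in WT Phz DMSO and 284, 189, 222 and 255 CPM in WT Phz Imi libraries. The Het values were 240, 366, 267 and 235 CPM (None DMSO), 187, 201 and 207 CPM (None Imi), 195, 218, 296, 295 and 277 CPM (Phz DMSO) and 253, 288, 326 and 286 CPM (Phz Imi). Het and WT libraries did not overlap in unstressed DMSO larvae, and they overlapped in the other 3 conditions. The averaged difference was 0.33 ± 0.09 (log2, SE; edgeR adjusted p = 0.12), and DESeq2 gave an adjusted p of 0.036. In unstressed imiquimod larvae alone it was -0.09 ± 0.19. PSMD1 was also the 1 member at an unadjusted p under 0.05 in the genotype by imiquimod interaction (-0.47 ± 0.19, adjusted p = 0.80), in which edgeR called 0 members and 0% of all genes, and 5.91% of all genes were at an unadjusted p under 0.05.

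PSMA3, a subunit of the alpha ring, followed with 0.36 ± 0.10 (edgeR adjusted p = 0.14). Its values in WT libraries were 184, 217 and 134 CPM (None DMSO), 129, 121, 215 and 150 CPM (None Imi), 175, 181 and 157 CPM (Phz DMSO) and 168, 169, 171 and 206 CPM (Phz Imi). In Het libraries they were 259, 288, 223 and 186 CPM (None DMSO), 145, 192 and 223 CPM (None Imi), 238, 151, 229, 218 and 196 CPM (Phz DMSO) and 219, 251, 289 and 214 CPM (Phz Imi). The genotypes were separate after Phz with imiquimod and overlapped elsewhere.

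Next by p were one PSMD2 copy (ENSDARG00000099653; 78.4 ± 16.4 CPM in 14 WT and 102 ± 25.1 CPM in 16 Het libraries; 0.41 ± 0.12, edgeR adjusted p = 0.15) and PSMC1, an ATPase of the base. PSMC1 held 101 ± 26.8 CPM in WT and 135 ± 28.6 CPM in Het libraries, and its difference was 0.41 ± 0.13 (edgeR adjusted p = 0.19). PSMD2 is the base subunit that docks ubiquitin receptors. The genes of smallest p in the other classes were PSMB7 (0.27 ± 0.10), the lid gene PSMD8 (0.35 ± 0.13), the activator PSME3 (0.36 ± 0.14) and PSMD9, a chaperone of the base (0.41 ± 0.19), at edgeR adjusted p between 0.30 and 0.53. The negative values of smallest p were those of a copy of the nuclear activator PSME4 (ENSDARG00000018742; -0.31 ± 0.17), of psma2a (-0.10 ± 0.11) and of the PSMA6 copy ENSDARG00000013966 (-0.11 ± 0.12), with edgeR adjusted p from 0.63 to 0.87. PSME3IP1, named for its binding to PSME3, was at -0.15 ± 0.20.

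The count of 12 higher members became 19 when replicate 2 of WT None DMSO was left out and lay between 10 and 17 without any other single library. The summed level of the 4 matched neutrophil markers lyz, npsn, mmp13a and MMP9 was 15500 ± 7295 CPM (7698 to 34595) in WT and 11360 ± 4841 CPM (5189 to 19800) in Het libraries, none of them at 0 in any library. The ranges overlapped, and after Phz with DMSO the Het mean was the higher one, at 13177 CPM against 11212 CPM. Exocrine pancreas markers, 11 matched, summed to a median of 837 CPM (488 to 1658) in WT and 913 CPM (399 to 7418) in Het libraries. Most of the typical sum came from the CPA1 gene ENSDARG00000021339, at 394 to 1654 CPM (median 772.5). The other pancreas markers had medians of at most 5.42 CPM (prss1), and amy2a was at 0 in 18 of the 30 libraries. The Het mean of 1718 CPM was raised by 4 libraries at 3070, 3185, 4184 and 7418 CPM, all above the highest WT library. The part of either in the genotype difference was not tested.

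**Figure D4:**
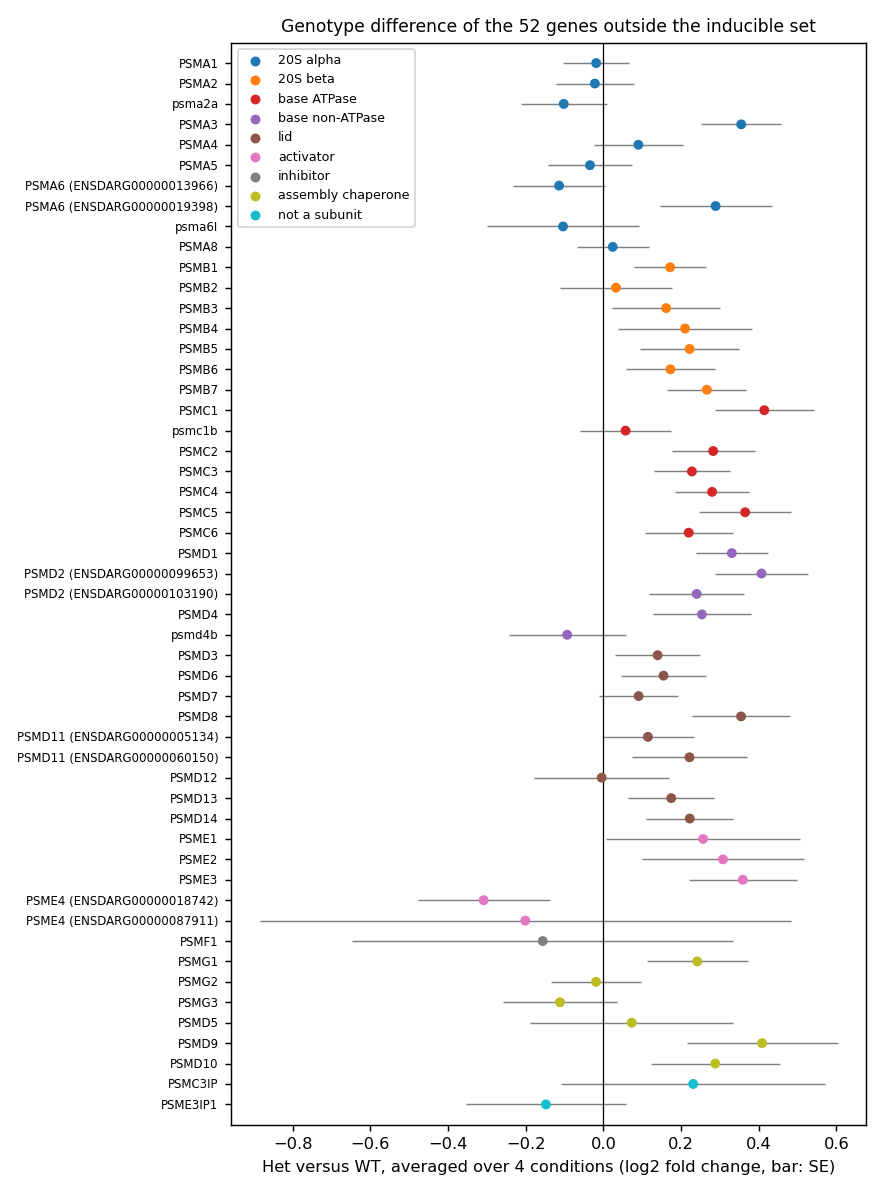
Log2 fold change of Het against WT, averaged over the 4 conditions, with its standard error, for the 52 proteasome genes outside the inducible set, coloured by class. All 7 ATPase genes of the base and all 7 constitutive beta genes lie right of 0, and the alpha ring genes lie on both sides.

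For Phz against no stress, averaged over genotype and treatment, edgeR called 0 members, against 0.0201% of all genes. At an unadjusted p under 0.05, 7 members were higher, against 3.95% of all genes, and 0 lower, against 8.40%. Positive values were found for 53 of 57 members, with a median of 0.13, where all genes had a median of -0.06. The smallest p belonged to PSMA2 of the alpha ring (0.28 ± 0.10), the PSMD2 copy ENSDARG00000103190 (0.33 ± 0.12) and PSME3 (0.35 ± 0.14), at edgeR adjusted p of 0.23, 0.24 and 0.28. The negative values were small, led by PSMD8 (-0.12 ± 0.13), PSMB2 (-0.09 ± 0.14) and PSMC3IP, a factor of meiotic recombination (-0.11 ± 0.34). The average covers unlike conditions: with DMSO the members' median was -0.04 in WT and -0.06 in Het larvae, and with imiquimod it was 0.28 and 0.35, beside -0.07 and -0.05 over all genes. With imiquimod 51 (WT) and 52 (Het) of the 57 members were positive. Mean levels of blood cell markers differed between these groups too. In WT larvae the summed level of 9 erythroid markers averaged 906 CPM (DMSO) and 1082 CPM (imiquimod) without Phz and 2125 and 1904 CPM after it, and that of the 4 neutrophil markers averaged 20979 and 17957 CPM without Phz and 11212 and 12151 CPM after it. In Het larvae the erythroid means were 1434 and 1104 CPM without and 1310 and 1787 CPM after Phz, and the neutrophil means 10649 and 12117 CPM without and 13177 and 9233 CPM after it. The ranges without and after Phz overlapped in these pairs, except for the erythroid sum in Het larvae with imiquimod. There they were 977 to 1174 CPM without and 1376 to 2415 CPM after Phz. Sums of other marker sets could be separate too. That of 7 lymphoid markers in WT larvae with DMSO was 266 to 371 CPM without and 483 to 627 CPM after Phz, and it overlapped in the other pairs. The WT None DMSO neutrophil values were widely spread, from 10879 to 34595 CPM. Over all libraries the erythroid sum ranged from 492.9 to 3031 CPM, with the second SLC4A1 copy at 0 in 15 libraries and the other 8 markers at 0 in none. Their part in the Phz difference was not tested. The count of 7 became 1 with libraries S1 to S6 left out and 1 with the log2 total in the model.

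For imiquimod against DMSO, averaged over genotype and stress, edgeR called 0 members, against 0.00502% of all genes. At an unadjusted p under 0.05, 4 members were lower, against 2.25% of all genes, and 1 was higher, against 6.72%. Negative values were found for 40 of 57 members (median -0.06, and 0.06 over all genes). The members lower at that level were PSMA2 (-0.28 ± 0.10), PSMA5 (-0.24 ± 0.11), the PSMA6 copy ENSDARG00000013966 (-0.34 ± 0.12) and PSMG3, a chaperone of alpha ring assembly (-0.33 ± 0.15), with edgeR adjusted p from 0.37 to 0.52. PSMA2 averaged 87.9, 67.5, 109 and 89.2 CPM in the 4 WT groups (None DMSO, None Imi, Phz DMSO, Phz Imi) and 88.5, 72.0, 97.6 and 87.4 CPM in the Het groups, so its imiquimod mean was the lower one in each of the 4 pairs. The 1 higher member was the PSMD2 copy ENSDARG00000099653 (0.26 ± 0.12, adjusted p = 0.52), and PSMG1 was at 0.22 ± 0.13. The count of 4 lower members became 7 without replicate 1 of WT None DMSO.

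The inducible genes were expressed at low levels. PSMB8 ranged from 0.166 to 23.04 CPM (median 6.17), PSMB10 from 1.51 to 25.9 CPM (median 10.2) and psmb12 from 0.359 to 15.9 CPM (median 5.68), with counts in all 30 libraries. PSMB9 was at 0 in 9 libraries and psmb13a in 8, and both were at 0 in 6. In such libraries a count of 0 allows up to 3 counts, which is 0.197 to 0.526 CPM, for counting error only. At the other end, 10 libraries held 10 or more counts of PSMB9, 10 held as many of psmb13a, and 8 held as many of both. PSMB9 and psmb13a both had their highest level in replicate 1 of Het Phz Imi, at 5.68 and 8.10 CPM, and so did PSMB10.

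PSMB8 measured 3.16, 10.03 and 0.166 CPM in WT None DMSO and 4.66, 3.82, 8.71 and 5.93 CPM in WT None Imi libraries. In WT Phz DMSO libraries it was at 8.21, 6.402 and 5.64 CPM, and in WT Phz Imi libraries at 23.04, 22.9, 3.80 and 15.8 CPM. The last group thus held the 2 highest PSMB8 values of all libraries and also 1 value below those of all WT Phz DMSO libraries. Het None DMSO libraries held 12.1, 7.04, 5.81 and 7.70 CPM, and Het None Imi libraries 5.62, 4.40 and 4.30 CPM, separate ranges. Het Phz DMSO libraries held 8.99, 2.29, 2.12, 18.55 and 14.5 CPM, and Het Phz Imi libraries 8.71, 3.02, 5.66 and 7.40 CPM, which overlapped.

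No inducible gene was called, and none was at an unadjusted p under 0.05 in any of the 3 averaged contrasts or the 3 interactions. With imiquimod all 5 had positive averaged values: PSMB10 0.55 ± 0.30, psmb12 0.43 ± 0.41, PSMB8 0.07 ± 0.39, PSMB9 0.42 ± 0.95 and psmb13a 0.99 ± 0.88 (log2, SE; edgeR adjusted p 0.62 for PSMB10 and from 0.84 to 1 for the others). After Phz all 5 were positive as well, from 0.31 ± 0.95 for PSMB9 to 0.66 ± 0.39 for PSMB8 (edgeR adjusted p from 0.52 to 0.95). For genotype they lay on both sides of 0, from -0.35 ± 0.94 for PSMB9 to 0.43 ± 0.85 for psmb13a, with PSMB8 at -0.09 ± 0.39, PSMB10 at 0.31 ± 0.30 and psmb12 at 0.37 ± 0.41 (edgeR adjusted p from 0.85 to 0.99). The values of PSMB8, PSMB9 and psmb13a changed sign in at least 1 averaged contrast when a single library was left out.

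**Figure D5:**
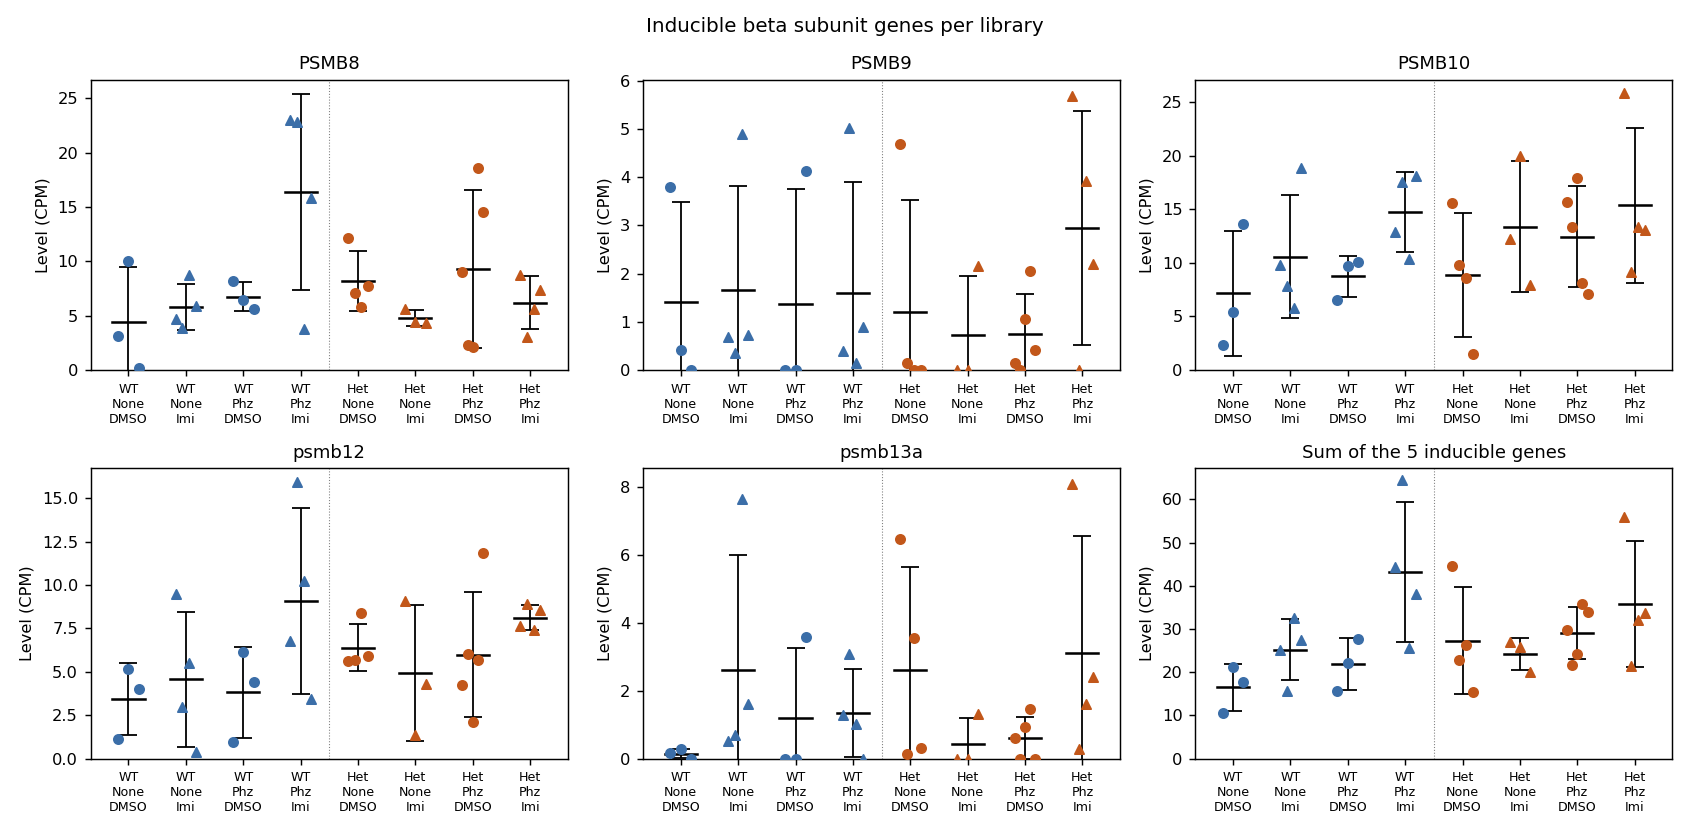
Level (CPM) of the 5 inducible beta subunit genes and their sum in each library, with the mean and SD of each group (the lower end of a bar stops at 0); WT in blue, Het in orange, circles for DMSO and triangles for imiquimod. The highest sum, 64.5 CPM, is in replicate 2 of WT Phz Imi, and the groups overlap widely.

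Within libraries, the balance of each inducible gene with its constitutive counterpart was taken as a share of their joint counts, which is not corrected for gene length and is compared only between libraries. PSMB8 made up 0.285 to 22.9% of the counts of PSMB8 and PSMB5 (median 8.81%, n = 30), PSMB10 made up 0.870 to 13.9% of those of PSMB10 and PSMB7 (median 5.87%), and PSMB9 made up 0 to 8.19% of those of PSMB9 and PSMB6 (median 0.842%). The PSMB8 share was 16.3 ± 6.77% (SD, n = 4) in WT Phz Imi libraries and 9.90 ± 1.497% (n = 3) in WT Phz DMSO libraries, with overlapping ranges. In Het larvae after Phz it was 6.06 ± 2.30% (n = 4) with imiquimod and 10.9 ± 7.81% (n = 5) with DMSO, also with overlapping ranges. The mean shares of PSMB10 (7.16 and 5.82%) and PSMB9 (4.07 and 1.03%) in the same Het groups differed in the other direction. In WT larvae after Phz, with imiquimod and with DMSO, the PSMB10 means were 8.04 and 5.05% and the PSMB9 means 1.85 and 2.40%.

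The activators open the alpha gate without the regulatory particle. PSME1 and PSME2, which form the interferon-inducible activator, ranged from 4.49 to 33.03 CPM and from 7.12 to 59.9 CPM. Both had positive values in all 3 averaged contrasts, from 0.25 ± 0.25 to 0.43 ± 0.25 for PSME1 and from 0.12 ± 0.21 to 0.31 ± 0.21 for PSME2, and no adjusted p below 0.51. The share of all genes with separate ranges between groups is not given here. PSME3 forms a nuclear activator, and its WT None Imi group was picked after the values were seen. It measured 92.2 to 111 CPM in WT None DMSO, 62.4, 41.2, 74.7 and 41.0 CPM in WT None Imi, 83.3 to 119 CPM in WT Phz DMSO and 74.8 to 123 CPM in WT Phz Imi libraries. The 4 WT None Imi libraries lay below all 3 WT None DMSO libraries (-0.87 ± 0.28, edgeR adjusted p = 0.54), and all 3 Het None Imi libraries (82.8 to 124 CPM) lay above them. The inhibitor gene PSMF1 was low, from 0 to 14.5 CPM, with averaged values of -0.16 ± 0.49 (genotype), 0.34 ± 0.49 (Phz) and -0.02 ± 0.50 (imiquimod).

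The variation among libraries, as the SD in percent of the mean over all 30, was smallest for PSMA1 at 14.3% (194.5 to 335 CPM) and largest for psmb13a at 143%. Its median was 20.8% in the alpha ring, 24.1% in the constitutive beta ring, 20.9% among the ATPases, 21.7% in the lid and 71.9% among the inducible genes. Counting error weighs more on the low inducible genes, so these percentages are not a measure of regulation alone. Set beside the median variation of genes at a like level, 2 of the 5 inducible genes and 40 of the 50 constitutive genes varied less. PSMB10 varied by 47.1% beside 53.3% at its level, and PSMB8 by 71.9% beside 62.3%.

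Zebrafish carry some subunits as paralogous copies, and the files do not show how reads alike in both copies were assigned, so their split is uncertain. PSMA2 held 30.8 to 55.0% of the joint counts of PSMA2 and psma2a (median 39.2%, n = 30), and PSMC1 held 36.3 to 73.6% of those of PSMC1 and psmc1b (median 55.5%).

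Pathway genes outside the rule were read from 3 lists. For Phz and imiquimod edgeR, DESeq2 and voom called 0 genes of any list. Over all genes, edgeR called 4 (Phz) and 1 (imiquimod) of 19930, voom 14 and 5 of 19930, and DESeq2 162 and 56 of 20592. With so few calls, 0 in lists of this size does not set them apart from other genes. At an unadjusted p under 0.05 edgeR had 0 to 3 per list in either direction. Over all genes the edgeR shares at that level were 3.95% higher and 8.40% lower for Phz. For imiquimod they were 6.72% higher and 2.25% lower. Of 15 factors that assemble, bind or regulate proteasomes, edgeR called 0 for genotype, against 0.437% of all genes. Of the 15, 14 were positive (median 0.22). At an unadjusted p under 0.05 were 3, all higher, against 5.07% of all genes in that direction. They were UCHL5 (0.46 ± 0.13) and USP14 (0.33 ± 0.12), deubiquitinases of the regulatory particle, and TXNL1 (0.35 ± 0.15), a thioredoxin-like protein bound to it. POMP, which chaperones the maturing core particle, averaged 51.9, 26.6, 36.8 and 41.7 CPM in the 4 WT groups (None DMSO, None Imi, Phz DMSO, Phz Imi) and 47.7, 30.4, 50.5 and 54.4 CPM in the Het groups. Its Phz by imiquimod interaction was 0.95 ± 0.26 (edgeR adjusted p = 0.26). VCP, the ATPase that extracts ubiquitinated proteins from complexes, was at 0.68 ± 0.18 in the same interaction (edgeR adjusted p = 0.24). POMP and VCP were picked for this interaction after their values were seen, and the lists' counts in it are not given here.

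Of 20 genes of ubiquitin supply and delivery, 9 had a positive value for genotype, with a median of -0.01. The gene rps27a, which encodes ubiquitin fused to a small ribosomal subunit protein, was at -0.43 ± 0.11 (edgeR adjusted p = 0.090), and DESeq2 called it. The ubiquitin activating enzyme gene uba1 was at 0.24 ± 0.09 (adjusted p = 0.39). Among 21 genes of class I antigen processing, which takes up proteasome products, edgeR, DESeq2 and voom called 0 for genotype. Over all genes they called 0.437%, 1.15% and 0.517%. With edgeR 2 of the 21 were higher and 1 lower at an unadjusted p under 0.05, against 5.07% and 3.91% of all genes. The medians of the 21 were -0.04 for genotype, -0.04 for Phz and 0.15 for imiquimod. TAP1, a subunit of the peptide transporter, was at 0.38 ± 0.46 for imiquimod.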

How the data were processed

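The authors deposited 1 table of raw read counts, whole numbers with a row for each gene and a column for each of the 30 libraries. Per the labels' protocols, cells were sorted into Trizol and libraries were made by Smart-seq2. HISAT2 2.1.0 and featureCounts (Subread 2.0.0) on GRCz11 are named in the submitters' processing notes, beside Trimmomatic 0.39, SAMtools 1.9, FastQC 0.11.9 and DESeq2; the annotation, the strand setting and the treatment of reads shared between copies are not given in the sources used here. Reads of duplicated copies are therefore uncertain, and full-length reads without molecular identifiers are not counts of molecules.

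Symbols came from a reference table that matched 19528 of 20631 identifiers. With edgeR 4.0.16 (R 4.3.3), counts were TMM-scaled (factors 0.896 to 1.07), filtered with filterByExpr and fitted by the robust quasi-likelihood test in 1 model with 8 group coefficients. The common dispersion was 0.674. The 18 contrasts were genotype, Phz and imiquimod differences, averaged over the other factors and within single conditions, and 3 interactions. P-values were Benjamini-Hochberg adjusted over 19930 genes within a contrast and called under 0.05. Fold changes are log2 with their standard error. Levels are CPM on TMM-scaled totals, without gene length, so a gene called low or abundant here is so in CPM only. Named for the averaged contrasts were the 3 members of smallest p per direction, the member of smallest p per class for genotype, all inducible genes, and the members of largest and smallest variation. The members and lists were chosen with earlier results of these data known.

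Alternatives were DESeq2 1.42.0, limma 3.58.1 voom, no filter, a replicate block, a term for libraries S1 to S6 or their removal, and each library left out in turn; a depth covariate was added after the data were seen. The code was tested on simulated data. No sequences are printed, since none was in the tables used. A further result is not reported here.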

Additional observations from a re-analysis of the deposited data

Results flagged for a closer look

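In each group of 4 or 5 libraries the highest and lowest value of each named gene and of the summed constitutive level was compared with the rest by its gap to the nearest library over the group's range (Dixon's 95% critical values 0.829 and 0.710). Of 145 groups tested, 14 had a library past it, where chance alone gives about 1 in 20 for independent, normally distributed values. Some values here are low counts with zeros, and genes of the same library can move together. The rate of 1 in 20 therefore need not hold here, and an excess cannot be read from the 14. In WT None Imi, replicate 3 stood above the other 3 in the summed constitutive level (4889 CPM), PSMA1 (335 CPM), PSMB9 (4.89 CPM) and psmb13a (7.64 CPM). In WT Phz Imi, replicate 2 stood apart for PSMB9 (5.02 CPM), PSMG1 (78.2 CPM) and PSMC3IP (3.98 CPM), replicate 3 for PSMD9 (14.5 CPM) and PSME3IP1 (42.8 CPM) and replicate 4 for PSMA3 (206 CPM). In Het None DMSO, replicate 1 stood apart for PSMB9 (4.68 CPM) and replicate 3 for psmb12 (8.40 CPM). In Het Phz DMSO, replicate 2 was low for the PSMD2 copy ENSDARG00000099653 (64.5 CPM), and in Het Phz Imi, replicate 3 was high for PSMA1 (307 CPM).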

How the results depend on the processing

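edgeR's count of 0 called members held in all 18 contrasts with no filter on low counts, with a block for replicate number, with a term for S1 to S6, with those libraries left out, with the depth covariate, without each single library, and with voom; DESeq2 called 1 member for genotype (PSMD1; 236 of 20592 genes in all) and 2 for the Phz by imiquimod interaction (PSMG2 and PSMB6; 102 genes in all), where edgeR called 87 and 7 genes. The deviations of same-numbered replicates had a median correlation of 0.0706 over 94 pairs (29 above 0.1), somewhat above the -0.035 of 298 differently numbered pairs (61 above 0.1). The numbers were not taken as pairs because not every same-numbered pair was above 0.1. That rule cannot show that same-numbered libraries shared no effect. With the replicate block the count of members called was 0. At an unadjusted p under 0.05 were then 11, 5, 4 and 21 members for genotype (higher), Phz (higher), imiquimod (lower) and the interaction (higher). Leaving out single libraries gave 10 to 19, 5 to 9, 3 to 7 and 15 to 23. The Phz count became 1 with S1 to S6 left out and 1 with the depth covariate, which gave 13 for the interaction. Some values that had not passed the test changed sign. With S1 to S6 left out these were PSMB8 (imiquimod, -0.04), PSMB10 (genotype, -0.007), psmb12 (imiquimod, -0.026) and psmb13a (genotype, -0.043). PSMB8 for genotype was 0.14 with voom. With the depth covariate PSMB9 for Phz was -0.828 and PSMD8 for Phz 0.021. Without single libraries the ranges were -0.23 to 0.27 (PSMB8, genotype), -0.08 to 0.43 (PSMB8, imiquimod), -1.69 to 1.23, -1.25 to 1.69 and -0.93 to 1.995 (PSMB9, genotype, Phz and imiquimod), -0.75 to 1.96, -0.86 to 1.86 and -0.19 to 2.52 (psmb13a, in the same order) and -0.24 to 0.017 (PSMC3IP, Phz). The cause was not tested. Of 36 further values of named members not printed above, 15 changed sign in some setting, all of them at most 0.34 in size. PSMB9 and psmb13a had fewer than 10 counts in 20 of the 30 libraries each.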
